A study of Mus musculus with 17 samples.

Results

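The genes described here are 36 genes of the unfolded protein response and the integrated stress response, measured in whole lungs of mice given endotoxin. They were chosen as a fixed list of gene symbols without a filter on their values, but with earlier results of these data known. All 36 were found on the array, and they stand among 12393 genes that had a probe set naming 1 gene. By role they were 7 stress sensors and transcription factors, 12 chaperones and oxidoreductases of the endoplasmic reticulum (ER), 7 genes of ER-associated degradation (ERAD), 3 genes of the translocon and signal peptidase, and 7 targets of the integrated stress response. For the 23 members that several probe sets measure, the brightest on average over the arrays was taken.

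The study compared wild-type mice with NOS2-/- mice, which lack the inducible nitric oxide synthase, to find genes whose response to endotoxin depends on the genotype. All 17 mice were male, and each was challenged intravenously with saline or with lipopolysaccharide (LPS) from Escherichia coli at 20 mg/kg. Wild-type mice (C57BL/6J) gave 4 lungs at 22 h after saline, 3 at 7 h after LPS and 3 at 22 h after LPS. NOS2-/- mice, for which the labels name no strain, gave 1 lung at 22 h after saline, 3 at 7 h after LPS and 3 at 22 h after LPS. Neither the labels nor the methods state the age of the mice. Saline lungs were taken at 22 h only, so treatment and time after injection cannot be told apart in a comparison of 7 h LPS with saline, and the knockout affects every cell of the mouse. One Affymetrix array was run per mouse. Values are the deposited log2 signals, so that a difference of 1 is a 2-fold change. Probe sets differ in brightness for technical reasons, so no gene's signal was set against another gene's.

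The ER folds proteins for secretion and for membranes. When unfolded proteins accumulate there, 3 sensors in its membrane respond: Ern1 (IRE1) splices the mRNA of the transcription factor Xbp1, Atf6 is cleaved to release a transcription factor, and Eif2ak3 (PERK) phosphorylates the translation factor eIF2alpha. That last step is shared with kinases that sense amino acid shortage, viral RNA and haem, and together they form the integrated stress response, in which general translation slows and the transcription factor Atf4 is made in larger amounts. Xbp1 and Atf6 raise chaperones and ERAD genes, while Atf4 raises genes of amino acid synthesis, tRNA charging and the recovery from the translation block. Plasma cells, alveolar type 2 cells and macrophages are lung cells known for a well-developed ER.

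Promoter sequence gives a way to see which members carry the classical binding elements of these factors, and the stretches below are shown because the genes behind them carry the results that follow. Promoter windows of RefSeq (GRCm38.p6, 250 bases before to 50 bases after each start) were found for 30 of the 36 members. Both strands were searched for the ER stress element (ERSE: CCAAT, 9 bases, CCACG), which binds Atf6 and Xbp1, for its second form (ERSE-II: ATTGG, 1 base, CCACG), for the unfolded protein response element (UPRE: TGACGTGG) and for the core of the element bound by Atf4 (CARE: TGATGNAA). ERSE and ERSE-II share their CCACG end. The ERSE was found in 7 of the 30 members (23.3%) and in 0.137% of all 27025 genes of the table. The 7 members were *Hspa5*, *Hsp90b1*, *Calr*, *Canx*, *Pdia6*, *Creld2* and *Syvn1*, and *Hsp90b1* held the element on each strand. ERSE-II was found in *Herpud1* (3.33% of members, 0.0444% of all genes) and the UPRE in 0 of the 30 (0.714% of all genes). The CARE core was found in *Herpud1*, *Trib3*, *Asns* and *Chac1* (13.3% of members, 4.51% of all genes). A match is a description of the letters and not a measured binding site. The stretches are given 5′ to 3′ on the strand of the gene, with the fixed letters of the elements in capitals, for 5 ERSE genes, for *Herpud1* with a CARE core on its reverse strand followed by ERSE-II, and for *Asns* with the CARE core.
Hspa5, chr2:34772005-34772063, + strand: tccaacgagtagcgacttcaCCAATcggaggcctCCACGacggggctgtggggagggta
Hsp90b1, chr10:86705513-86705676, - strand: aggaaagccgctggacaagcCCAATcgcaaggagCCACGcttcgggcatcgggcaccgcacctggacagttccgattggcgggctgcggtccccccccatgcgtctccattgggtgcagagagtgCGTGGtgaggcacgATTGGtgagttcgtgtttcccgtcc
Calr, chr8:84847055-84847113, - strand: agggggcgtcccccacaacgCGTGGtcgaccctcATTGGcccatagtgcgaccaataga
Pdia6, chr12:17266471-17266529, + strand: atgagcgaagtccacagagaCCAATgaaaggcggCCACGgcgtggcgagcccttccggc
Creld2, chr15:88819500-88819558, + strand: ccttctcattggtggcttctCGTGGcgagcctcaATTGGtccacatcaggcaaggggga
Herpud1, chr8:94386297-94386407, + strand: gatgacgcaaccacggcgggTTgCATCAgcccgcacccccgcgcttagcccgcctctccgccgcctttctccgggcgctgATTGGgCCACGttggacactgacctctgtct
Asns, chr6:7693210-7693252, - strand: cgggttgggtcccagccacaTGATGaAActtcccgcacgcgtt

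Some arrays stood apart. Replicate 2 of the wild-type mice at 22 h after LPS correlated with its fellow replicates at 0.955 and 0.949 over all probe sets, whereas the other pairs within a group correlated at 0.992 to 0.998. Neutrophil markers had a summed log2 level of 12.95 to 13.23 in wild-type saline lungs and of 15.93 to 16.26 after LPS, with all 10 measured genes of the list higher at both times, while 6 of 8 endothelial markers and 6 of 7 alveolar type 2 markers were lower. The single NOS2-/- saline lung had a squamous epithelium level of 14.56, against 10.55 to 11.01 in the other 16 lungs, and a skeletal muscle level of 13.89, against 10.41 to 11.27. In whole lung, a change in the number of cells of a type and a change in RNA per cell cannot be told apart, and the part of these shifts in the member results was not tested. The probe set for *Nos2* read 8.19 to 9.06 in wild-type and 8.85 to 9.25 in NOS2-/- lungs after LPS. No source used here says whether it lies in the deleted part of the gene, so it does not check the genotype labels.

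In wild-type lungs at 7 h after LPS, 14 of the 36 members (38.9%) were higher than in saline lungs and 0 were lower by limma at an adjusted p under 0.05 (1 was lower at an unadjusted p under 0.05). Over all probe sets 14.4% were called higher and 17.9% lower in this comparison. The median log2 difference of the members was 0.22, beside -0.05 for all probe sets. Of the 7 targets of the integrated stress response 5 were higher, with a median of 0.72, and these included the largest differences of the set. Of the 12 chaperones 3 were higher, of the 7 ERAD genes 1, of the 3 translocon genes 2 and of the 7 sensors and factors 3. All 14 calls remained when each array in turn was left out.

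**Figure D1:**
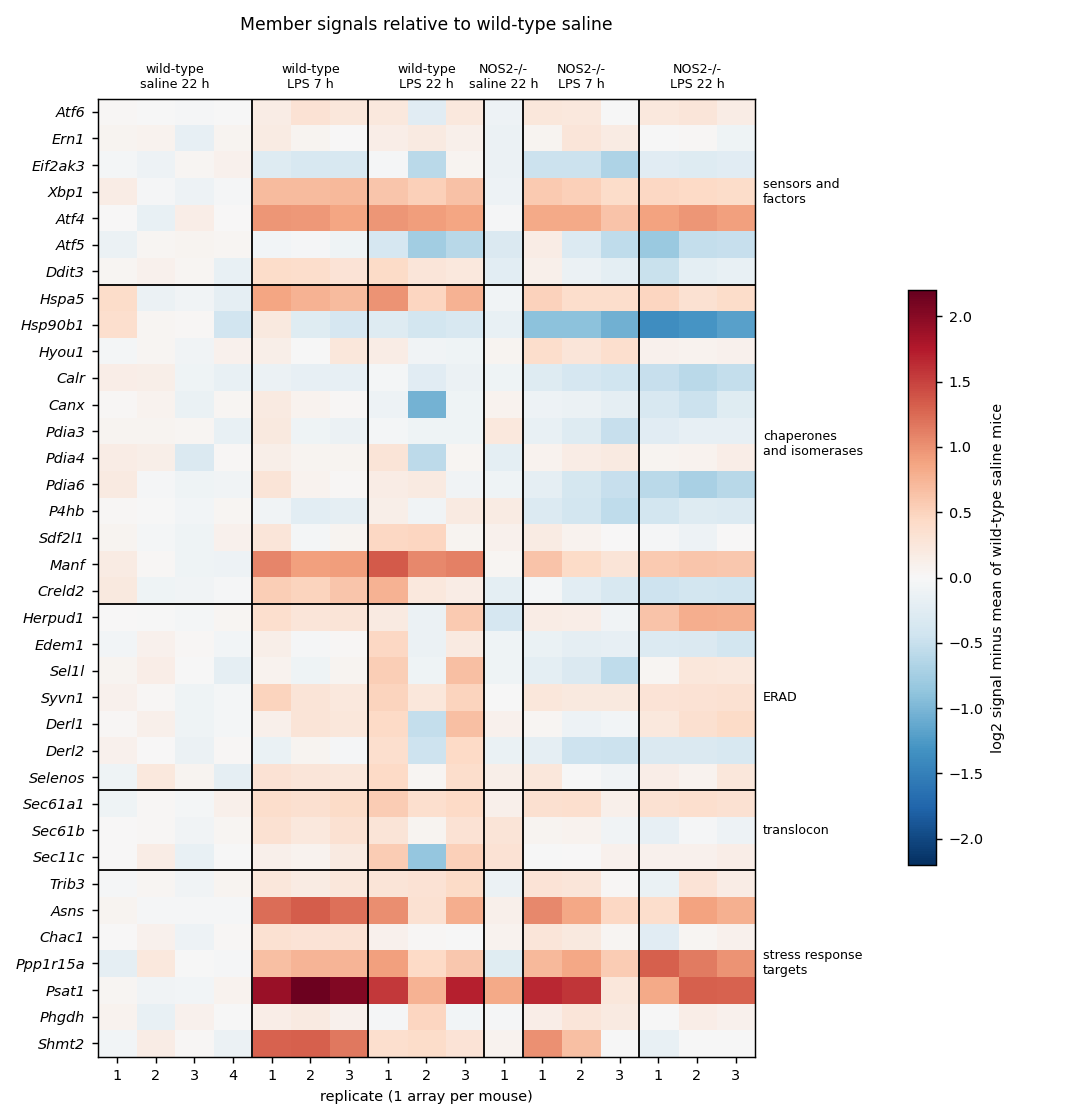
Log2 signal of each of the 36 members (rows, by role) in each of the 17 mice (columns, by group and replicate), as the difference from the mean of the 4 wild-type saline mice (colour scale in log2 units). *Psat1*, *Asns*, *Shmt2*, *Atf4*, *Manf* and *Xbp1* are red in wild-type lungs 7 h after LPS, and *Hsp90b1* is darkest blue in NOS2-/- lungs 22 h after LPS.

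At 7 h the members with the largest differences were *Psat1*, *Shmt2* and *Asns*. *Psat1*, the phosphoserine aminotransferase of serine synthesis, read 6.71, 6.60, 6.61 and 6.75 in the 4 wild-type saline lungs. It read 8.57, 8.83 and 8.71 at 7 h after LPS and 8.23, 7.44 and 8.38 at 22 h. Every LPS lung of the wild-type lay above every saline lung, and replicate 2 at 22 h was the lowest of the LPS lungs. The difference at 7 h was 2.04 ± 0.28 (SE), a 4.10-fold rise with a limma adjusted p of 3.7e-05, and at 22 h it was 1.35 ± 0.28, a 2.54-fold rise with an adjusted p of 0.0015. The second probe set of *Psat1* gave 1.58 at 7 h. Its saline signals were dim, below the array medians of 8.46 to 8.55. The filter at the 40th percentile of signal left this gene out, so that alternative did not check it.

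*Asns*, the asparagine synthetase and a classical Atf4 target whose promoter stretch with a CARE core is printed above, read 9.55, 9.46, 9.46 and 9.46 in wild-type saline lungs. It read 10.71, 10.81 and 10.70 at 7 h and 10.51, 9.82 and 10.28 at 22 h after LPS. The groups did not overlap at either time, with a 2.39-fold rise at 7 h (log2 difference 1.25 ± 0.16, limma adjusted p = 1.5e-05) and a 1.65-fold rise at 22 h (0.72 ± 0.16, adjusted p = 0.0022). *Shmt2*, the mitochondrial serine hydroxymethyltransferase that passes on one-carbon units, read 8.49, 8.72, 8.59 and 8.42 in saline lungs and 9.85, 9.88 and 9.72 at 7 h, a 2.39-fold rise (1.26 ± 0.16, limma adjusted p = 2.0e-05). At 22 h it read 8.93, 8.96 and 8.86, just above the saline lungs, and the difference of 0.36 was not called. The *Shmt2* probe set next in brightness gave 0.60 at 7 h, so the size of its rise depended on the probe set. *Phgdh*, the dehydrogenase that opens serine synthesis, had a difference of 0.15 at 7 h and 0.13 at 22 h and passed the test at neither time. Nor did *Psph*, the phosphatase of the last step of serine synthesis and no member, with 0.02 and -0.23. At 22 h *Manf* (1.17), *Atf4* (0.92) and *Hspa5* (0.74) had larger differences than *Asns*.

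**Figure D2:**
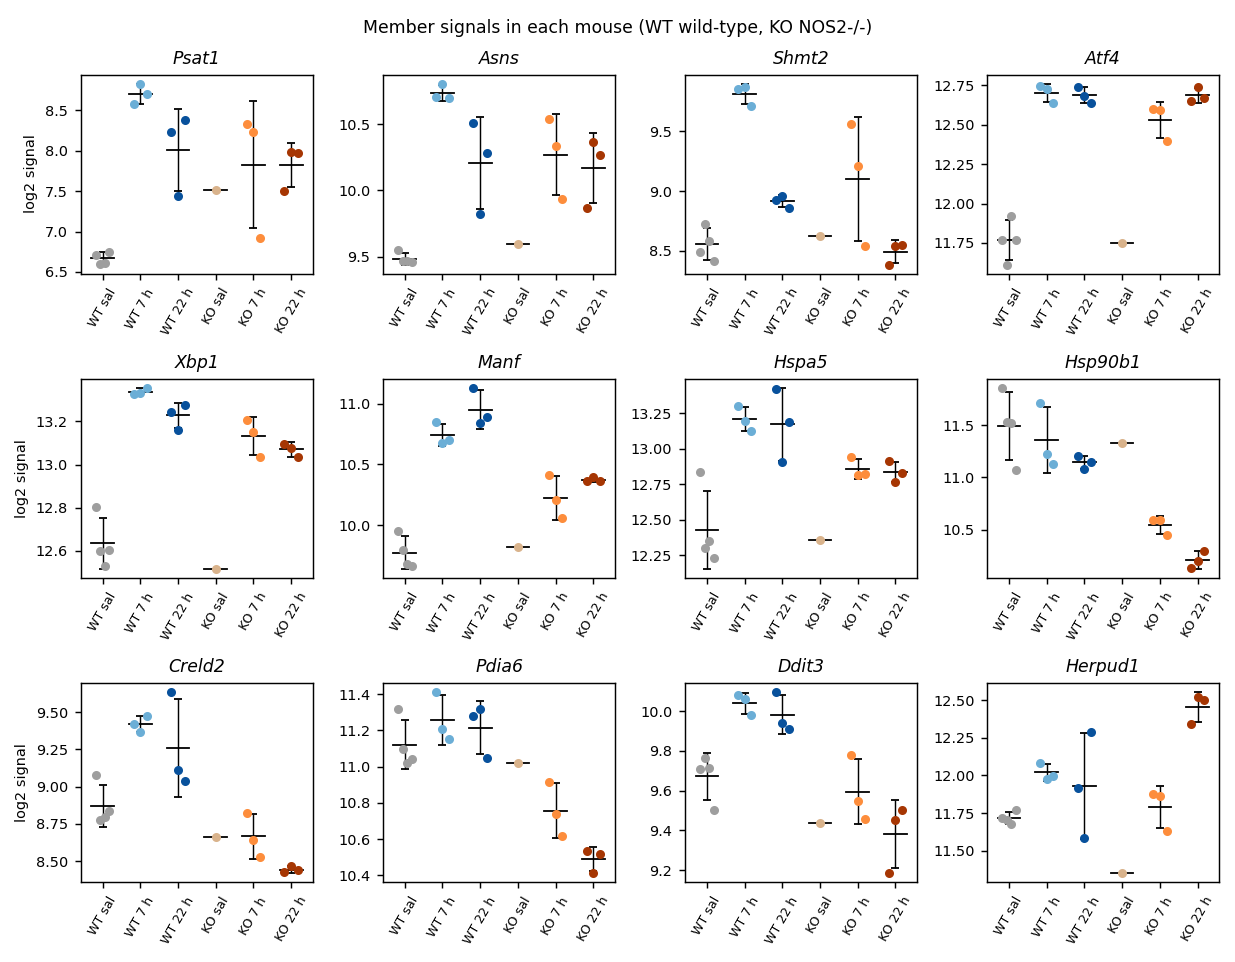
Log2 signal (vertical axes) of 12 members in each mouse (points), by group, with the group mean and SD (bars; the NOS2-/- saline group is 1 mouse and has no SD). The wild-type LPS points of *Psat1*, *Asns*, *Atf4*, *Xbp1* and *Manf* lie above all wild-type saline points. The NOS2-/- LPS points of *Hsp90b1*, *Creld2* and *Pdia6* lie below all wild-type LPS points.

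Of the transcription factors, *Atf4*, *Xbp1* and *Ddit3* rose and *Atf5* did not. *Atf4* read 11.77, 11.61, 11.92 and 11.77 in wild-type saline lungs. It read 12.75, 12.73 and 12.64 at 7 h and 12.74, 12.68 and 12.64 at 22 h after LPS. The LPS values of both times lay close together and above all saline lungs, a 1.91-fold rise at 7 h (0.93 ± 0.08, limma adjusted p = 1.2e-07) and a 1.89-fold rise at 22 h (0.92 ± 0.08, adjusted p = 1.5e-07). *Xbp1* rose 1.63-fold at 7 h, from 12.64 ± 0.12 (SD, N = 4) to 13.34 ± 0.02 (N = 3), and 1.51-fold at 22 h. The array does not separate its spliced from its unspliced mRNA. *Ddit3* (CHOP), a pro-apoptotic factor induced by Atf4, read 9.71, 9.76, 9.72 and 9.50 in saline lungs, 10.08, 10.06 and 9.98 at 7 h and 10.10, 9.94 and 9.91 at 22 h, with rises of 1.29-fold and 1.24-fold and no overlap. *Atf5*, a factor related to Atf4, went the other way at 22 h. It read 10.25, 10.42, 10.44 and 10.42 in saline lungs, 10.32, 10.35 and 10.29 at 7 h, and 10.01, 9.61 and 9.78 at 22 h. Its 22 h lungs were lower than saline by limma (log2 difference -0.58 ± 0.14, adjusted p = 0.0039), and its 7 h lungs lay among the saline lungs. The 3 membrane sensors were not called at either time: *Atf6* had differences of 0.24 and 0.07, *Ern1* of 0.08 and 0.15, and *Eif2ak3* of -0.33 and -0.19.

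Some of the ER chaperones rose and most were not called. *Hspa5* (BiP), the main ER chaperone and the usual read-out of the unfolded protein response, read 12.84, 12.30, 12.35 and 12.23 in wild-type saline lungs. It read 13.30, 13.20 and 13.13 at 7 h and 13.42, 12.91 and 13.19 at 22 h after LPS. All LPS lungs were above all saline lungs, although saline replicate 1 came close to the lowest of them, and the rise was 1.71-fold at 7 h (0.78 ± 0.13, limma adjusted p = 2.7e-04) and 1.67-fold at 22 h (0.74 ± 0.13, adjusted p = 4.1e-04). *Manf*, a small secreted protein of the ER that is induced by ER stress, read 9.96, 9.80, 9.69 and 9.67 in saline lungs. It read 10.85, 10.68 and 10.70 at 7 h and 11.13, 10.84 and 10.89 at 22 h. With no overlap it rose 1.95-fold at 7 h (limma adjusted p = 1.3e-06) and 2.25-fold at 22 h (adjusted p = 1.5e-07). *Creld2*, another ER protein induced by ER stress, read 9.08, 8.77, 8.80 and 8.84 in saline lungs, 9.42, 9.37 and 9.48 at 7 h and 9.64, 9.11 and 9.04 at 22 h. It was 1.46-fold higher at 7 h without overlap and 1.31-fold higher at 22 h, when saline replicate 1 lay within the LPS range. *Sdf2l1*, which works with BiP, was called at 22 h (0.33), also with overlap. The differences of *Hsp90b1*, *Hyou1*, *Calr*, *Canx*, *Pdia3*, *Pdia4*, *Pdia6* and *P4hb* lay between -0.17 and 0.14 at 7 h and between -0.42 and 0.09 at 22 h, and none was called.

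At 22 h after LPS in wild-type mice, 14 of the 36 members were higher than in saline lungs and 1 was lower, where 12.8% of all probe sets were called higher and 20.0% lower. The member median was 0.20, beside 0.00 for all probe sets. *Trib3*, a pseudokinase that binds Atf4 (0.34), and *Sdf2l1* were called here, whereas *Shmt2* and *Chac1*, an enzyme that breaks down glutathione (0.32 at 7 h and 0.03 at 22 h), were called only at 7 h, and the change between these times is given next. *Ppp1r15a* (GADD34), which directs the phosphatase that restores translation, read 9.95, 10.38, 10.15 and 10.12 in saline lungs, 10.81, 10.90 and 10.90 at 7 h and 11.05, 10.58 and 10.74 at 22 h. It was higher without overlap, 1.65-fold at 7 h and 1.56-fold at 22 h. Of the ERAD genes *Syvn1* (HRD1), the ubiquitin ligase of ERAD, was higher at both times (0.34 and 0.41), and of the translocon *Sec61a1*, the channel itself (0.38 and 0.46), and *Sec61b* (0.30 and 0.22). *Herpud1*, *Edem1*, *Sel1l*, *Derl1*, *Derl2*, *Selenos* and *Sec11c* had differences between -0.04 and 0.37 and were called at neither time.

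The 22 h counts depended in part on replicate 2 of that group, the array that stood apart. It had the lowest wild-type LPS value of *Canx* (10.40, against 11.33 and 11.36 in its fellow replicates), *Derl1* (10.30, against 11.26 and 11.48) and *Sec11c* (8.67, against 10.07 and 10.05). Without it 21 members were higher and 1 lower at 22 h, the added genes including *Herpud1*, *Edem1*, *Sel1l*, *Derl1*, *Derl2* and *Selenos*. Of all probe sets 41.2% were then called, higher or lower. Of the 15 calls 11 remained when each array in turn was left out, and those of *Ddit3*, *Sdf2l1*, *Creld2* and *Sec61b* did not.

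From 7 h to 22 h after LPS in wild-type mice, 0 members rose and 2 fell by limma, *Shmt2* (-0.90 ± 0.18, adjusted p = 0.0037) and *Atf5* (-0.52 ± 0.15, adjusted p = 0.034). Of all probe sets 3.15% rose and 7.68% fell, and at an unadjusted p under 0.05 there were 3 members higher and 6 lower. All 3 *Shmt2* lungs at 22 h lay below all 3 at 7 h, but with the mean of all its probe sets the call was lost. *Psat1* (-0.69), *Asns* (-0.53) and *Chac1* (-0.29) had negative differences that did not pass the test, and *Atf4* (-0.02), *Hspa5* (-0.04) and *Xbp1* (-0.11) had differences near 0. Without replicate 2 at 22 h, 7 members were called higher (*Eif2ak3*, *P4hb*, *Edem1*, *Sel1l*, *Derl1*, *Derl2* and *Sec11c*) and 1 lower. Of all probe sets 15.1% were called in that fit. The number of members called was 5 without replicate 1 at 22 h (14.8% of all probe sets), 4 without NOS2-/- replicate 3 at 7 h (10.4%) or replicate 1 at 22 h (9.62%), and 1 without any 1 of the 7 h wild-type replicates (6.41% to 7%).

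In NOS2-/- mice over the same interval 2 members rose and 1 fell, where 4.65% of all probe sets rose and 3.16% fell. *Herpud1*, an ERAD scaffold of the ER membrane whose promoter stretch holds ERSE-II and a CARE core, read 11.88, 11.86 and 11.63 at 7 h and 12.34, 12.52 and 12.50 at 22 h, a 1.58-fold rise without overlap (0.66 ± 0.13, limma adjusted p = 0.0057) that remained whichever array was left out. *Ppp1r15a* read 10.86, 11.00 and 10.71 at 7 h and 11.47, 11.29 and 11.14 at 22 h, a 1.36-fold rise (0.44 ± 0.13, limma adjusted p = 0.046). *Shmt2* fell by 0.61, with overlap, since it read 9.56, 9.21 and 8.54 at 7 h and 8.39, 8.54 and 8.55 at 22 h. The calls of *Ppp1r15a* and *Shmt2* were lost under most of the arrays left out: 1 member was called without wild-type saline replicate 3 or 4, any 1 of the wild-type 7 h replicates, NOS2-/- 7 h replicate 1 or 2, or any 1 of the NOS2-/- 22 h replicates, and 8 were called without wild-type replicate 2 at 22 h. In that last fit 19.9% of all probe sets were called, and in the fits with 1 member called 4.07% to 7.45% were.

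The change from 7 h to 22 h itself differed between the genotypes for 1 member, *Herpud1*, whose rise was larger in NOS2-/- mice by 0.75 ± 0.18 (limma adjusted p = 0.039). In wild-type lungs it read 12.08, 11.98 and 12.00 at 7 h and 11.92, 11.59 and 12.29 at 22 h, a spread that spans the 7 h values. Its second probe set gave 0.79 (adjusted p = 0.047). Of all probe sets 2.49% were called higher and 0.544% lower in this contrast, and at an unadjusted p under 0.05 there were 2 members higher and 2 lower. The call remained under 4 of the 17 arrays left out.

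At 7 h after LPS, 0 members were higher and 5 were lower in NOS2-/- than in wild-type lungs by limma, where 0.526% of all probe sets were higher and 1.48% lower. At an unadjusted p under 0.05 there were 1 higher and 16 lower. The difference was negative for 32 of 36 members (88.9%, beside 44.9% of all probe sets), with a median of -0.22. At 22 h after LPS, 2 members were higher and 10 lower, where 9.63% of all probe sets were higher and 6.81% lower, and the difference was negative for 28 of 36 (77.8%, beside 48.2%), with a median of -0.15. The 2 comparisons used different mice. All 5 genes lower at 7 h were also lower at 22 h, which is 50% of the 10 lower there, and across the 36 members the differences at the 2 times had a Pearson r of 0.604 and a Spearman rho of 0.589. Genes are not independent replicates, and these correlations are a description. Neither the overlap nor the correlations were computed over all probe sets, so they are not shown to be particular to the members.

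**Figure D3:**
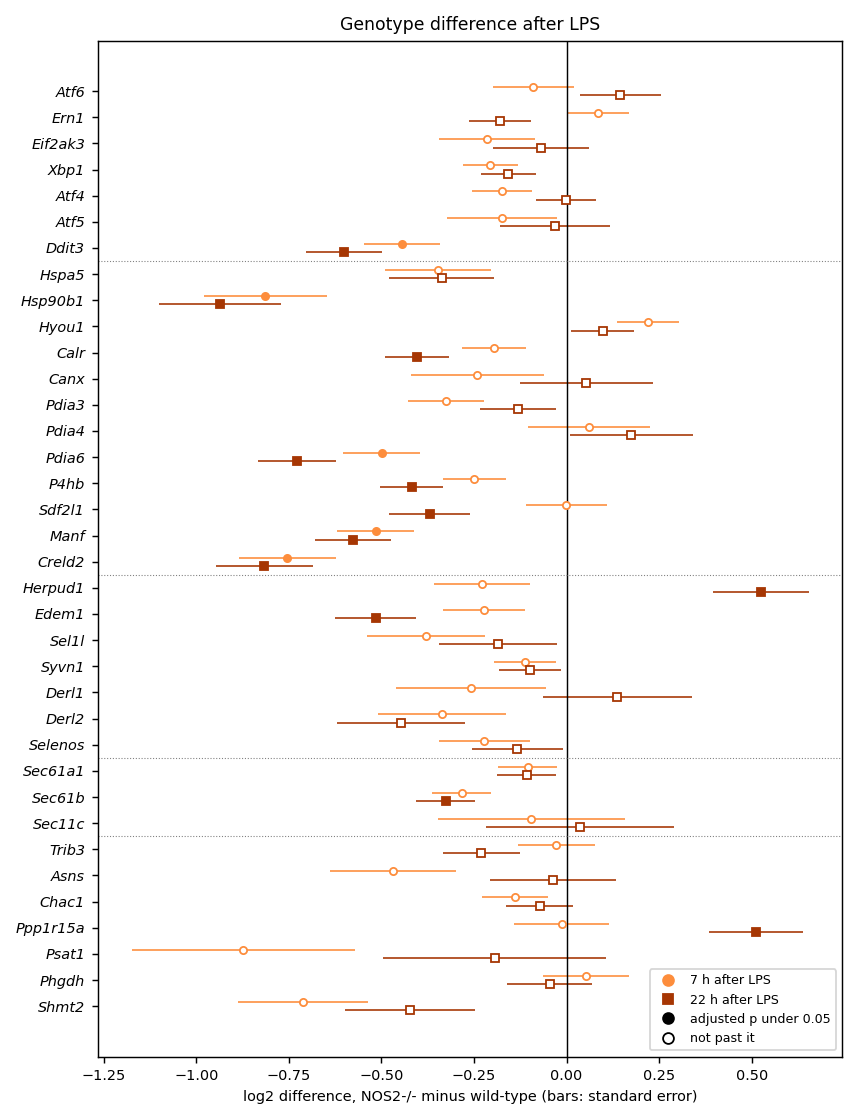
Log2 difference of NOS2-/- minus wild-type lungs for each member (horizontal axis; bars, standard error) at 7 h (circles) and 22 h (squares) after LPS, filled where the limma adjusted p was under 0.05. *Hsp90b1*, *Creld2*, *Pdia6*, *Manf* and *Ddit3* are filled on the lower side at both times, and *Herpud1* and *Ppp1r15a* on the higher side at 22 h.

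Among the members, chaperone genes made up most of the lower calls, with 4 of 12 at 7 h and 7 of 12 at 22 h. Their median at 22 h was -0.39. A separate list of 15 other ER chaperones had 2 lower (13.3%) at 7 h and 1 lower (6.67%) at 22 h. Of all probe sets 1.48% and 6.81% were lower. The medians of that list were -0.17 and -0.13. *Hsp90b1* (GRP94), the Hsp90 of the ER, had the largest difference of the members at 22 h. It read 11.71, 11.23 and 11.13 in wild-type and 10.60, 10.59 and 10.44 in NOS2-/- lungs at 7 h, and 11.21, 11.08 and 11.15 in wild-type and 10.13, 10.20 and 10.30 in NOS2-/- lungs at 22 h. The genotypes did not overlap, and the NOS2-/- level was 0.569 of wild-type at 7 h (-0.81 ± 0.17, limma adjusted p = 0.028) and 0.522 at 22 h (-0.94 ± 0.17, adjusted p = 0.0013). In saline lungs it read 11.86, 11.53, 11.52 and 11.07 in wild-type mice and 11.33 in the NOS2-/- mouse, within the wild-type range. A second probe set of *Hsp90b1* had differences of -0.51 and -0.44, which did not pass the test (limma adjusted p = 0.15 and 0.16).

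*Creld2* read 8.83, 8.65 and 8.53 in NOS2-/- lungs at 7 h and 8.42, 8.47 and 8.44 at 22 h, below every wild-type LPS lung. The level was 0.593 of wild-type at 7 h (-0.75 ± 0.13, limma adjusted p = 0.015) and 0.568 at 22 h (-0.82 ± 0.13, adjusted p = 6.8e-04). The NOS2-/- saline lung read 8.66, just under the lowest wild-type saline lung. Thus *Creld2* was higher after LPS in wild-type mice, while the NOS2-/- LPS lungs lay within or below the range of wild-type saline lungs.

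*Pdia6*, a protein disulfide isomerase that acts with BiP, read 11.41, 11.21 and 11.15 in wild-type and 10.92, 10.74 and 10.62 in NOS2-/- lungs at 7 h. At 22 h it read 11.28, 11.32 and 11.05 in wild-type and 10.53, 10.41 and 10.52 in NOS2-/- lungs. The genotypes were apart at both times, with differences of -0.50 ± 0.11 (limma adjusted p = 0.033) and -0.73 ± 0.11 (adjusted p = 3.1e-04). Its other, dimmer probe set did not show this, with 0.26 and -0.01. In saline lungs *Pdia6* read 11.32, 11.10, 11.02 and 11.04 in wild-type mice and 11.02 in the NOS2-/- mouse.

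*Manf* rose after LPS in wild-type mice and stood lower in NOS2-/- LPS lungs, where it read 10.41, 10.21 and 10.06 at 7 h and 10.36, 10.39 and 10.37 at 22 h. These values lay between the saline and the wild-type LPS lungs without overlap, with genotype differences of -0.52 ± 0.10 (limma adjusted p = 0.028) and -0.58 ± 0.10 (adjusted p = 0.0015). *Ddit3* read 9.78, 9.55 and 9.46 in NOS2-/- lungs at 7 h and 9.19, 9.45 and 9.50 at 22 h. These were below all wild-type LPS lungs, with differences of -0.44 (limma adjusted p = 0.043) and -0.60 (adjusted p = 0.0011). Its NOS2-/- saline value was 9.44, below the 9.50 to 9.76 of wild-type saline lungs.

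At 22 h alone, *Calr* (-0.40), a lectin chaperone, *P4hb* (-0.42), the founding protein disulfide isomerase, *Sdf2l1* (-0.37), *Edem1* (-0.52), which marks misfolded glycoproteins for ERAD, and *Sec61b* (-0.33) were also lower in NOS2-/- lungs, all without overlap. For the same genes the differences at 7 h were -0.20, -0.25, 0.00, -0.22 and -0.28, and none of these 5 had a called change of the genotype difference between the times. *Hspa5* had differences of -0.35 and -0.34 that were not called. *Herpud1* (0.52, 1.44-fold, limma adjusted p = 0.012) and *Ppp1r15a* (0.51, 1.43-fold, adjusted p = 0.013) were higher in NOS2-/- lungs at 22 h, again without overlap. *Atf4* (0.00), *Xbp1* (-0.16), *Asns* (-0.04) and *Psat1* (-0.19) did not pass the test at 22 h.

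Among the 30 members with a promoter window, the 7 with an ERSE had a median genotype difference of -0.40 at 22 h, with 4 lower (*Hsp90b1*, *Calr*, *Pdia6* and *Creld2*). The 23 without one had a median of -0.16, with 5 lower and 2 higher. At 7 h the medians were -0.35 and -0.22, with 3 and 1 lower. After LPS in wild-type mice the 7 also had the lower median, with 0.14 beside 0.22 at 7 h. The 2 sets were not tested against each other, and *Canx*, which holds the element, had a difference of 0.05 at 22 h. Without wild-type replicate 2 at 22 h, the array that stood apart, *Canx* and *Hspa5* were also called lower. So were *Eif2ak3*, *Sel1l* and *Derl2*, whose windows hold no ERSE, and the call of *Sdf2l1* was lost. In that fit 26.6% of all probe sets were called.

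The genotype calls at 7 h changed with the arrays in the fit. With only the 2 groups compared, 0 members were higher and 18 lower, and all 5 calls were kept. Of all probe sets 25.5% were called in that fit. The number of members called was 0 without any 1 of the wild-type 7 h replicates or without NOS2-/- replicate 2 or 3 at 7 h, 3 without NOS2-/- replicate 2 or 3 at 22 h, and 20 (19 lower) without wild-type replicate 2 at 22 h. The fits with 0 members called had only 0.102% to 0.278% of all probe sets called. Those with 3 had 0.765% and 0.743%, and the last fit had 26.9%. NOS2-/- replicate 3 at 7 h was the lowest of its group for *Psat1* (6.92, against 8.33 and 8.23), *Asns* (9.94, against 10.54 and 10.34) and *Shmt2* (8.54, against 9.56 and 9.21), and the large negative differences of *Psat1* (-0.87) and *Shmt2* (-0.71) at 7 h were not called. At 22 h, 8 of the 12 calls (*Calr*, *Creld2*, *Ddit3*, *Edem1*, *Hsp90b1*, *Manf*, *P4hb* and *Pdia6*) remained whichever array was left out. Without wild-type replicate 2 there were 15 lower and 2 higher, where 26.6% of all probe sets were called. When only the groups compared were fitted at 22 h, 5 members were called, where 4.06% of all probe sets were called. Of the 12 calls 4 remained (*Ddit3*, *Hsp90b1*, *Manf* and *Pdia6*). The calls of *Creld2* (limma adjusted p = 0.052), *Calr* (0.060), *P4hb* (0.082) and *Edem1* (0.13) were among those lost, with the same differences. The call of *Herpud1* was lost without NOS2-/- replicate 2 at 22 h, those of *Ppp1r15a* and *Sec61b* without NOS2-/- replicate 1, and that of *Sdf2l1* without any 1 of the NOS2-/- 22 h replicates or without wild-type replicate 1 or 2.

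Summed levels of cell type markers were read beside these genotype differences. The summed neutrophil level at 22 h was 16.14 to 16.26 in wild-type and 16.23 to 16.30 in NOS2-/- lungs, with 2 of 10 genes higher and 2 lower. The macrophage level was 14.78 to 15.03 and 14.96 to 14.99, with 4 of 8 genes lower in NOS2-/- lungs, and that of B and plasma cells 11.67 to 12.07 and 11.96 to 12.07, with 0 of 6 called by limma (0 also at an unadjusted p under 0.05). At 7 h the B and plasma cell level was 11.82 to 11.91 in wild-type and 12.01 to 12.10 in NOS2-/- lungs, with 2 of 6 genes higher in NOS2-/- lungs. For neutrophils at 7 h, 3 of 10 genes were lower in NOS2-/- lungs, with a level of 15.93 to 16.08 in wild-type and 15.75 to 15.98 in NOS2-/- lungs. Of the alveolar type 2 markers 2 of 7 were higher and 2 lower at 22 h (16.11 to 16.29 in wild-type, 16.26 to 16.29 in NOS2-/- lungs), and of the endothelial markers 2 of 8 were higher and 2 lower (14.07 to 14.42 and 14.14 to 14.19). The club and ciliated cell level at 22 h did not overlap, at 15.48 to 15.58 in wild-type and 15.73 to 15.81 in NOS2-/- lungs, with 2 of 6 genes higher. Skeletal muscle markers had 2 of 8 genes higher at 22 h (10.41 to 10.84 and 10.63 to 11.27). The part of these differences in the member results was not tested.

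The response of NOS2-/- mice could be measured only against their 1 saline mouse, which was assumed to vary like the other groups and whose lung carried squamous and muscle signal. At 7 h after LPS 3 members were higher (8.33%) and 3 lower (8.33%) than in that mouse. Of all probe sets 8.78% were higher and 13.7% lower, so the member shares were not above these. The higher genes were *Ppp1r15a* (0.97), *Atf4* (0.78) and *Xbp1* (0.62), and the lower genes were *Hsp90b1* (-0.78), *P4hb* (-0.59) and *Pdia3* (-0.55), a disulfide isomerase for glycoproteins. At 22 h 5 members were higher (13.9%) and 6 lower (16.7%), shares close to the 11.6% and 16.0% of all probe sets. Since 1 mouse shows no spread of its own, these calls rest on the spread of the other groups. *Ppp1r15a* read 9.89 in the saline mouse and was 2.66-fold higher at 22 h, and *Herpud1* read 11.35 and was 2.15-fold higher. *Atf4* read 11.75 in the saline mouse, 12.60, 12.59 and 12.40 at 7 h and 12.65, 12.74 and 12.67 at 22 h, so that every NOS2-/- LPS lung lay above that 1 mouse, by 0.94 on average at 22 h.

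*Xbp1* read 12.52 in the NOS2-/- saline mouse and between 13.03 and 13.21 in the NOS2-/- LPS lungs, and *Manf* was higher at 22 h only (0.55). The lower members at 22 h were *Hsp90b1* (-1.12), *Pdia6* (-0.53), *P4hb* (-0.51), *Calr* (-0.45), *Pdia3* (-0.43) and *Sec61b* (-0.39). For 3 of these genes the NOS2-/- saline mouse lay above every wild-type saline lung: *Pdia3* (11.86, against 11.46 to 11.69), *Sec61b* (11.75, against 11.37 to 11.51) and *P4hb* (12.67, against 12.44 to 12.54). Against the wild-type saline mice the calls of *Pdia3* (-0.20) and *Sec61b* (-0.10) at 22 h were lost and that of *P4hb* (-0.33) was kept, and the call of *Pdia3* was also lost without any 1 of the NOS2-/- 22 h replicates. *Psat1* read 7.51 in the saline mouse, above the 6.60 to 6.75 of wild-type saline lungs, and its differences of 0.32 and 0.31 were not called. Against the 4 wild-type saline mice instead, 11 members were higher and 6 lower at 7 h, and 10 higher and 8 lower at 22 h. Of all probe sets 36.7% and 40.8% were called there, higher or lower. Without wild-type replicate 2 at 22 h the counts against the NOS2-/- saline mouse were 10 higher and 6 lower at 7 h, and 9 higher and 7 lower at 22 h. Of all probe sets 38.1% and 41.2% were called in that fit.

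Other genes of these pathways, 83 measured of 90 listed in 6 lists, were read beside the members. In wild-type lungs 39 were higher (47%) and 12 lower (14.5%) at 7 h, where 14.4% of all probe sets were higher and 17.9% lower. At 22 h 35 were higher (42.2%) and 10 lower (12%), beside 12.8% and 20.0% of all probe sets, so the lower shares were below those of all probe sets at both times. All 11 measured cytosolic tRNA synthetases, the enzymes that charge tRNAs and many of which Atf4 induces, were higher at 7 h with a median of 0.78, led by *Wars* (1.96), *Tars* (1.18), *Iars* (1.09) and *Gars* (0.96). At 22 h 7 of the 11 were higher, and 7 of the 11 fell from 7 h to 22 h. *Wars* is also known as an interferon-induced gene. Of 17 other Atf4 and stress response targets 11 were higher and 2 lower at 7 h, including the stress-induced inhibitor of growth signalling *Ddit4* (1.87), the transcription factor *Atf3* (1.77) and the stress protein *Nupr1* (1.23), while the lipoprotein receptor *Vldlr* was lower (-1.14).

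**Figure D4:**
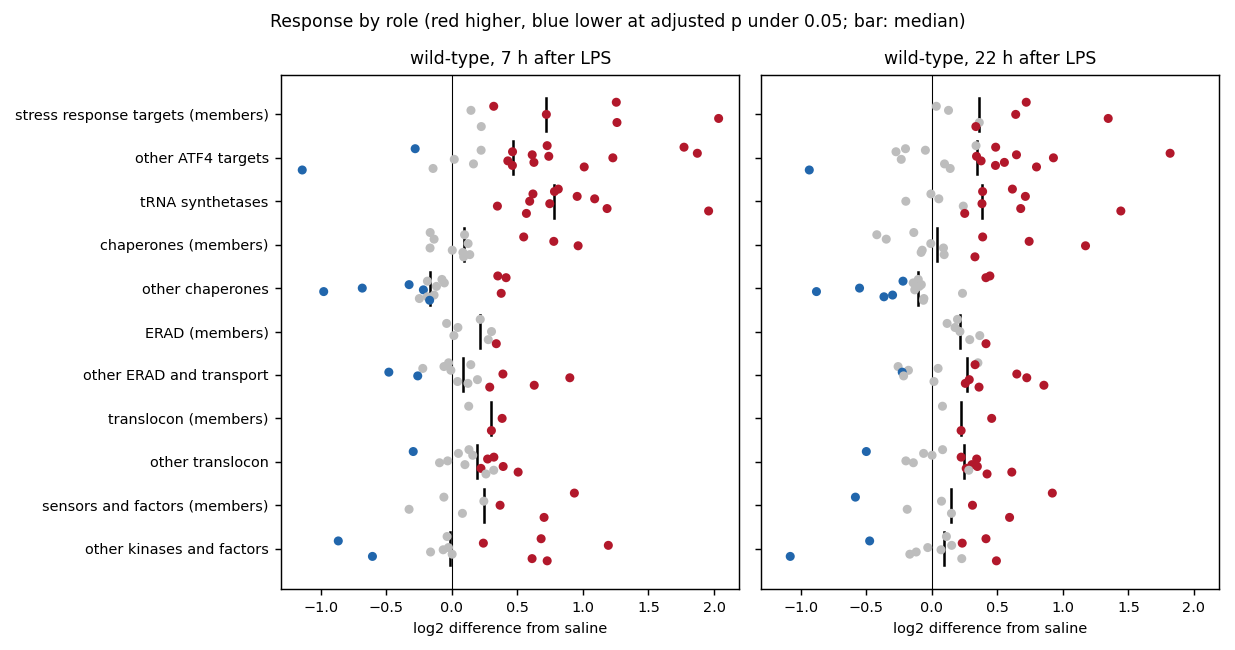
Log2 difference from saline of each member and each other pathway gene (points; red higher, blue lower, grey not called by limma at an adjusted p under 0.05) in wild-type lungs 7 h (left) and 22 h (right) after LPS, by role, with the median of each list (black bar). The stress response targets and the tRNA synthetases have the medians farthest to the right at 7 h, 0.72 and 0.78, and the ER chaperones lie around 0.

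Of the other ER chaperones 3 of 15 were higher and 5 lower at 7 h, whereas none of the 12 member chaperones was called lower. *Dnajb9* (0.41), a co-chaperone of BiP, was among the higher ones, and *Selenom* (-0.98) and *Pdia5* (-0.68), both redox proteins of the ER, among the lower. In ERAD and transport, 4 of 14 were higher and 2 lower at 7 h and 7 higher and 1 lower at 22 h. The higher genes included *Sec23b* (0.90 and 0.72), a coat protein of ER export vesicles, and *Ufd1* (0.63 and 0.86) and *Nploc4* (0.39 and 0.65), which form the p97 adaptor that pulls proteins from the ER. *Kdelr3* was lower at 7 h (-0.48). In the translocon list 5 of 14 were higher and 1 lower at 7 h, with *Ssr3* (0.51) higher and *Sec62* (-0.30) lower. Among other kinases and factors 5 of 12 were higher and 2 lower at 7 h, the largest being *Eif2ak2* (1.19), the kinase of eIF2alpha that senses double-stranded RNA and is induced by interferon. *Creb3l2* was lower at 7 h (-0.87). At 22 h 3 were higher and 2 lower, and the largest difference was that of *Mbtps1* (-1.08).

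Between genotypes, 0 of the 83 genes were higher and 7 lower in NOS2-/- lungs at 7 h by limma (5 and 29 at an unadjusted p under 0.05), where 0.526% of all probe sets were higher and 1.48% lower. At 22 h 8 were higher (9.64%) and 7 lower (8.43%), shares close to the 9.63% and 6.81% of all probe sets. *Dnajb9* was lower at 7 h (-0.64), as was *Wars* (-0.42). *Atf3* (0.98), *Ddit4* (0.87) and *Ppp1r15b* (0.50), which like *Ppp1r15a* directs the eIF2alpha phosphatase, were higher in NOS2-/- lungs at 22 h. The Atf4 partner *Cebpg*, picked after its values were seen, was lower at both times (-0.79 and -1.35).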

How the data were processed

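Whole-lung RNA was hybridised to Affymetrix MOE430A arrays, 1 per mouse, and samples were grouped by their labels. The authors deposited 1 log2 expression value per probe set and mouse, made with the affy package, which they name for background correction and normalization. No source used here gives its version or method. These log2 values were used as the authors deposited them (array medians 8.46 to 8.55). Of 22690 probe sets, 64 controls were left out. Symbols came from the platform's probe table, updated by gene ID to GRCm38.p6.

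All 17 arrays were fitted in limma 3.58.1 (R 4.3.3) with 6 group means and the default eBayes (prior df 3.75), giving 9 comparisons. P values were adjusted over 22626 probe sets (Benjamini-Hochberg) and called under 0.05. The labels do not say how replicates were raised, so p values measure the spread between these samples. The number of arrays, not a counting depth, limits the precision. The fit was also run on simulated data in which all groups had the same spread. In the real data the median SD over all probe sets was 0.055 in NOS2-/- and 0.208 in wild-type lungs at 22 h after LPS. The simulation therefore did not test the fit under unequal spread.

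The members and the lists were chosen with earlier results of these data known. Any member could be named, and every array was given for the 6 largest called differences of a comparison without overlap. Up to 4 called genes of each other pathway list were named, by size. Alternatives were quantile normalization, array medians set to 0, only the groups compared, probe sets above the 40th percentile of signal, a trended and robust prior, a replicate block, the mean of all probe sets of a gene, wild-type saline controls for NOS2-/- mice, and each replicate left out. Same-numbered mice did not deviate together (30 pairs, r from -0.385 to 0.362, 4 over 0.1), so the numbers were not used to pair mice.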

Additional observations from a re-analysis of the deposited data

Results flagged for a closer look

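In the 4 wild-type saline lungs, 4 of the 36 members had 1 lung set apart, its gap to the nearest other lung taking up more of the whole range than Dixon's critical value for groups of 4 allows. *Asns* was highest in replicate 1 (gap over range 0.944), *Ern1* was lowest in replicate 3 (0.939), *Pdia3* was lowest in replicate 4 (0.909) and *Atf5* was lowest in replicate 1 (0.897). Chance gives about 1 such group in 20. The range of the 4 lungs was small beside the LPS difference for *Asns*, which read 9.46 to 9.55 in saline and 9.82 or more in wild-type LPS lungs. *Pdia3* read 11.46 in replicate 4 and 11.67 to 11.69 in the other saline lungs.

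The 7 h to 22 h change of *Herpud1* differed between the genotypes by 0.75 on the log2 scale, by the test of that difference. It rose by 0.66 in NOS2-/- lungs, all 3 mice at 22 h lying above all 3 at 7 h, and had a difference of -0.09 in wild-type lungs, whose 22 h values of 11.59 to 12.29 spanned the 7 h values. The call of the difference remained under 4 of the 17 arrays left out. It was lost with only the groups compared and with the replicate block. This 1 call is 2.78% of the members, close to the 2.49% of all probe sets called higher.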

How the results depend on the processing

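No alternative reversed the direction of a called member, but many could not have done so. A member's difference stays the same when an array outside the comparison is left out. It also stays the same with only the groups compared, with the signal filter and with the other prior. These checks could change only whether a call was kept. Of 1654 checks of 69 calls, 1521 kept the call and 133 lost it, and of 216 counts of called members 155 stayed within 1.5 times the value given and 61 did not. With quantile normalization the counts were 6 for wild-type 22 h against 7 h, 6 for the same change in NOS2-/- mice, 3 for the genotypes at 7 h and 12 for NOS2-/- at 7 h against its saline mouse. The shares of all probe sets called were 12.9%, 10%, 2.67% and 24.6%. With only the groups compared in the fit the counts were, in that order, 1, 9, 18 and 10, and 5 for the genotypes at 22 h, 0 for the genotype difference in the 7 to 22 h change and 23 for NOS2-/- at 22 h against its saline mouse. The shares of all probe sets were, in the same order, 2.06%, 20.3%, 25.5%, 27%, 4.06%, 1.64% and 52.9%. Probe sets above the 40th percentile gave 4 for wild-type 22 h against 7 h, with 17.7% of the probe sets kept being called. The mean of all probe sets gave 10 for NOS2-/- at 7 h against saline (26.6% of all genes), and the 4 wild-type saline mice gave 17 and 18 for NOS2-/- at 7 h and 22 h (36.7% and 40.8% of all probe sets). Centring on array medians and a trended and robust prior moved no count by over 1.5 times. With the replicate block the counts were 1 for the 7 h to 22 h change in wild-type and 1 in NOS2-/- mice and 0 for its genotype difference, and 15 and 14 for wild-type LPS against saline at 7 h and 22 h, 4 and 13 for the genotypes, and 8 and 11 against the NOS2-/- saline mouse. In the same order, 9.28%, 6.12%, 1.72%, 28.2%, 28.7%, 1.1%, 14.2%, 18.4% and 23.4% of all probe sets were called. Leaving out each replicate in turn gave 14 to 20 (wild-type 7 h), 12 to 22 (wild-type 22 h), 1 to 8 (wild-type 22 h against 7 h), 1 to 8 (NOS2-/- 22 h against 7 h), 0 to 20 (genotypes at 7 h), 9 to 17 (genotypes at 22 h), 0 to 2 (genotype difference in the change), 6 to 16 (NOS2-/- 7 h against saline) and 10 to 16 (NOS2-/- 22 h against saline). The share of all probe sets called also moved. In the same order it was 26.4% to 46.1%, 29.5% to 41.2%, 6.41% to 18.1%, 3.92% to 19.9%, 0.102% to 26.9%, 10.3% to 26.6%, 1.07% to 7.2%, 18.8% to 38.1% and 23.6% to 41.2%. The causes of these shifts were not tested. With 3 or 4 mice per group, and 1 NOS2-/- saline mouse, small differences could not be resolved, and signal over background is not known from the deposited values.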
